A study of Homo sapiens with 18 samples.

Results

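Aminaphtone given with interleukin-1β (IL-1β) for 6 h was compared with IL-1β alone for the same time, on 6 of the 18 arrays of a series in ECV304 cells. The 3 arrays of cells given both agents for 6 h were set against the 3 arrays of cells given IL-1β and plain medium for 6 h. Of the 28869 transcript clusters on the array, which are probe sets that each cover a gene or locus, 17853 were annotated and had a mean log2 signal over the 18 arrays above 5.52, and all of these were tested. They include 15586 genes that carry a single symbol.

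Aminaphtone is a naphthohydroquinone derivative used in capillary disorders. It was given at 6 µg/ml, together with IL-1β at 100 IU/ml, to cells that had been held in 1% serum for 24 h and were confluent. The control cells had the same serum step and the same IL-1β, with medium in place of aminaphtone, and the remaining 12 arrays hold the same pair of groups at 1 and 3 h. No array holds cells without IL-1β or aminaphtone alone, so every value below describes aminaphtone in cells that also received IL-1β. The 3 arrays of a group are labelled as independent replicates of 1 cell line, and no oxygen setting is given in the sources used here.

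ECV304 is labelled as an endothelial line with both endothelial and epithelial features, and it is widely known as a derivative of the bladder carcinoma line T24. On these arrays 15 of 23 endothelial markers lay above the filter, while PECAM1, KDR, FLT1, TEK, ERG, EMCN, LYVE1 and MMRN1 lay below it. The 15 ran at 6 h from a mean log2 signal of 6.05 for VWF to 8.96 for ESAM. All 20 epithelial and urothelial markers on the array lay above the filter, from 5.67 for KRT20 to 12.2 for KRT8. The filter is low, and 17853 of the 21062 annotated transcript clusters lay above it. A place above the filter does not by itself show expression. The mean over the endothelial list was 6.42 to 6.57 in aminaphtone arrays and 6.43 to 6.58 with IL-1β alone, and that over the epithelial list was 7.63 to 7.70 in aminaphtone arrays and 7.68 to 7.72 with IL-1β alone. Array medians at 6 h were 6.97 to 7.01 with aminaphtone and 6.98 to 7.03 with IL-1β alone. Arrays of a group correlated at 0.986 to 0.996 with aminaphtone and at 0.987 to 0.994 with IL-1β alone, and arrays of different groups at 0.983 to 0.994. The 1 h control arrays spread most (0.913 to 0.971), and they enter the error of every test made over the 18 arrays.

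IL-1β signals through NF-κB and AP-1, transcription factors that switch on cytokines, chemokines, adhesion receptors and matrix-degrading proteases. Hypoxia-inducible factors (HIF) are a separate family that raises glycolytic enzymes, glucose transporters, mitophagy receptors and secreted factors such as stanniocalcins when oxygen is scarce, and inflammatory cytokines are known to raise HIF activity in normal oxygen as well. HIF binds a short core sequence in promoters and enhancers, ACGTG or GCGTG.

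After 6 h, 18 transcript clusters passed the threshold of an adjusted p of 0.05, and all 18 were lower with aminaphtone, which is 0.101% of those tested. None was higher (0%). At an unadjusted p of 0.05, 287 were higher and 404 lower, 1.61% and 2.26% of all. Together these are fewer than that cut would pass if no transcript cluster differed. Each of the 18 carries a single gene symbol, and in each one the 3 aminaphtone arrays lay below all 3 arrays with IL-1β alone, by 1.61-fold to 3.41-fold between group means. That the groups do not overlap is common on these arrays: 1261 transcript clusters (7.06%) were lower and 1459 (8.17%) higher in every aminaphtone array. Of the 18, 8 are in the hypoxia and glycolysis list: BNIP3, PFKFB4, HK2, PDK1, ENO2, STC1, STC2 and VLDLR. The other 10 are the cytokine and chemokine genes TNFSF18, EBI3 and CCL22, the vasoconstrictor gene EDN1, the protease gene MMP10, the Wnt inhibitor gene DKK1, and HILPDA, EVA1A, PODXL and DIPK2A. Leaving out 1 of the 6 arrays at 6 h gave 2 or 3 calls, except without control replicate 2, where 19 transcript clusters passed. Those 19 held 13 of the 18 genes, and DKK1, EBI3, EDN1, PODXL and VLDLR did not pass there. Control replicate 2 was the lowest array with IL-1β alone in all of the 18 genes except DKK1, EBI3 and EDN1. BNIP3 and PFKFB4 passed in each of the 18 fits that leave out 1 array.

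**Figure D1:**
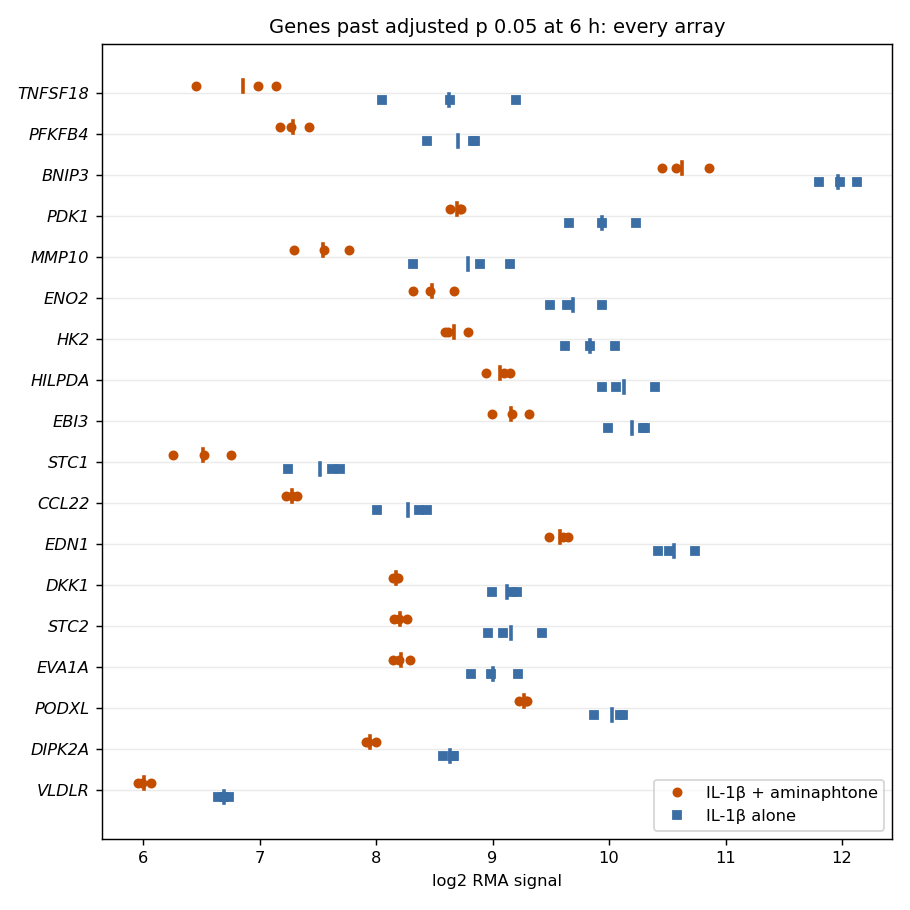
Log2 RMA signal (horizontal axis) of the 18 genes that passed the threshold at 6 h, sorted by size of difference. Each circle is an array with IL-1β and aminaphtone, each square an array with IL-1β alone and each bar a group mean, and in all 18 genes the circles lie left of the squares. Signals of different genes are not comparable with each other.

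The promoters of 3 hypoxia genes and 2 cytokine genes among those that fell are shown here because they hold the core letters of the factors named above. Each sequence is the 250 bases before the RefSeq transcript start in GRCh38.p14, written 5′ to 3′ along the gene's strand. For the first 3 genes capitals mark ACGTG or GCGTG and their reverse complements.
BNIP3 (chr10:131981924-131982173, minus strand): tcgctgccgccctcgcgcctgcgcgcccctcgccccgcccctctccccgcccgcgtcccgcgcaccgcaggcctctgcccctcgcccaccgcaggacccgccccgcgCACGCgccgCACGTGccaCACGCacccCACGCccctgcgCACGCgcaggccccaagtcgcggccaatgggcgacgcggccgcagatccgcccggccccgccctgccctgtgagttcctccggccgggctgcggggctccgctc
PFKFB4 (chr3:48556804-48557053, minus strand): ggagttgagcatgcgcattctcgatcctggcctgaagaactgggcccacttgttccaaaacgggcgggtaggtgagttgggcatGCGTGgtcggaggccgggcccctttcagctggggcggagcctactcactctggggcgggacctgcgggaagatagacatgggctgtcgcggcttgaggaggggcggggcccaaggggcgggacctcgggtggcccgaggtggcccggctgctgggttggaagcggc
ENO2 (chr12:6914330-6914579, plus strand): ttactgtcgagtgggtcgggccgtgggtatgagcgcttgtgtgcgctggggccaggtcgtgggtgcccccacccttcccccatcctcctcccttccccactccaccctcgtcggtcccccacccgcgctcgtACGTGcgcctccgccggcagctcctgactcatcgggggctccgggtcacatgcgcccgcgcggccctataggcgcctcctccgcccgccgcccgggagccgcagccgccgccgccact
For the cytokine genes capitals mark the NF-κB consensus and, in EBI3, the AP-1 letters TGANTCA.
EBI3 (chr19:4229273-4229522, plus strand): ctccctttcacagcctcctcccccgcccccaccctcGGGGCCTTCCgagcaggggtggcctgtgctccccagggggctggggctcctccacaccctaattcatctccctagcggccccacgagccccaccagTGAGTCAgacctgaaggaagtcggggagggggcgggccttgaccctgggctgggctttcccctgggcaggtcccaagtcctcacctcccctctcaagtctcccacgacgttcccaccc
CCL22 (chr16:57358533-57358782, plus strand): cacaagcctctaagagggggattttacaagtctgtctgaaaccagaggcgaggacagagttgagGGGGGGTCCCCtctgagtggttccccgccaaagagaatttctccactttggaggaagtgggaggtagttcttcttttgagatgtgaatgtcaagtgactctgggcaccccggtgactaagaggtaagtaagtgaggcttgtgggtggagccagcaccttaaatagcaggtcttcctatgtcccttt
The BNIP3 window holds 6 overlapping or separate core matches on either strand, whereas those of PFKFB4 and ENO2 hold 1 each. Windows of 15 of the 18 genes were found, some genes having several, and 11 of these 15 had ACGTG or GCGTG on either strand in at least 1 window. Among the 8 hypoxia genes, 7 were matched and 7 had it. The same letters occur in 60.9% of the 12189 tested genes with a window and in 43.2% of all 35116 windows, so most genes that did not pass hold them too. The narrower ACGTG was in 4 of these 7 hypoxia genes, against 26.9% of tested genes. TGANTCA was found for MMP10, ENO2 and EBI3, and in 6.42% of tested genes, and the NF-κB consensus for HK2, EVA1A, CCL22 and EBI3, and in 15.6% of tested genes. These matches describe letters in a window and show no binding.

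BNIP3 and PFKFB4 gave the smallest p-values of the whole table. BNIP3, a receptor on the outer mitochondrial membrane that directs mitochondria to autophagy, had log2 signals of 10.86, 10.57 and 10.45 with aminaphtone, against 12.12, 11.80 and 11.98 with IL-1β alone. The groups lay almost a whole log2 unit apart at their nearest arrays, and the mean was 2.54-fold lower (log2 difference -1.34, SE 0.128, adjusted p = 0.000154). PFKFB4, an enzyme that makes and removes the allosteric activator of phosphofructokinase and so sets the pace of glycolysis, had 7.42, 7.27 and 7.17 with aminaphtone, against 8.85, 8.44 and 8.83 with IL-1β alone. It was 2.67-fold lower (log2 difference -1.42, SE 0.160, adjusted p = 0.000865), again with a clear gap between the groups. In an array of a whole culture, a lower signal in every cell and a smaller number of cells that carry the transcript cannot be told apart.

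Enzymes at other steps of glucose use fell as well. HK2, the hexokinase that traps glucose in the cell, had 8.79, 8.59 and 8.62 with aminaphtone, against 9.84, 9.62 and 10.05 with IL-1β alone (log2 difference -1.17, SE 0.175, adjusted p = 0.0139). ENO2, the enolase isoform first known from neurons, had 8.67, 8.46 and 8.32 with aminaphtone, against 9.94, 9.49 and 9.64 with IL-1β alone (-1.21, SE 0.209, adjusted p = 0.0344). PDK1, the kinase that shuts pyruvate dehydrogenase and keeps pyruvate from the mitochondria, had 8.64, 8.73 and 8.72 with aminaphtone, against 9.94, 9.65 and 10.23 with IL-1β alone (-1.24, SE 0.204, adjusted p = 0.0237). For PDK1 the aminaphtone arrays were nearly equal and the spread lay in the arrays with IL-1β alone. SLC2A1, the glucose transporter at the entry of this route, had 11.03, 10.74 and 10.73 with aminaphtone, against 11.87, 11.62 and 11.81 with IL-1β alone. Its groups did not overlap either, but it missed the threshold over the 18 arrays (log2 difference -0.93, SE 0.188, adjusted p = 0.0758) and passed it when only the 6 arrays at 6 h were fitted (adjusted p = 0.0111).

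The secreted and membrane proteins of the hypoxia list came next. STC2 and STC1, stanniocalcins that act on calcium and phosphate handling, were both lower. STC2 had 8.26, 8.16 and 8.20 with aminaphtone, against 9.42, 8.96 and 9.09 with IL-1β alone (log2 difference -0.95, SE 0.164, adjusted p = 0.0344). STC1 had 6.52, 6.76 and 6.26 with aminaphtone, against 7.69, 7.24 and 7.62 with IL-1β alone (-1.01, SE 0.181, adjusted p = 0.0444). VLDLR, a receptor for triglyceride-rich lipoproteins and reelin, had 5.99, 6.07 and 5.96 with aminaphtone, against 6.74, 6.65 and 6.69 with IL-1β alone (-0.69, SE 0.117, adjusted p = 0.0340). Its signal lay close above the filter of 5.52. HILPDA, a lipid droplet protein that blocks triglyceride breakdown and was counted with the fatty acid genes here, had 9.15, 8.94 and 9.10 with aminaphtone, against 10.39, 9.94 and 10.06 with IL-1β alone (-1.07, SE 0.168, adjusted p = 0.0198). No array of one group reached the range of the other in any of these 4 genes.

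Of the 65 measured members of the hypoxia and glycolysis list, 8 were lower past the threshold and none higher, against 0.101% and 0% of all transcript clusters. The difference was negative in 57 of the 65 (87.7%), against 54.9% of all transcript clusters. The groups did not overlap in 39 members on the lower side, against 7.06% of all, and in 1 member on the higher side. The median log2 difference of the list was -0.28, against -0.02 over all transcript clusters. At 3 h, in separate arrays, the list's median was 0.00. With the 6 arrays at 6 h alone, 13 members were lower. Leaving out 1 array at 6 h left 2 members, BNIP3 and PFKFB4, except without control replicate 2, where 8 members passed, 7 of them among the 8 named above and without VLDLR. The list was drawn up with earlier results of these data known, so its direction is a description. Listed genes of the factor and of proteins that control it did not pass. The log2 difference was -0.01 for HIF1A and -0.18 for EPAS1, which encode its oxygen-regulated subunits, and 0.01 for their partner ARNT. It was 0.17 for VHL, part of the ubiquitin ligase that removes these subunits, and -0.27 for EGLN1, 0.04 for EGLN3 and 0.27 for HIF1AN, hydroxylases that use oxygen. P4HA1, a catalytic subunit of the enzyme that hydroxylates collagen prolines, had 8.35, 8.43 and 8.56 with aminaphtone, against 9.46, 9.19 and 9.45 with IL-1β alone (-0.92, SE 0.181, adjusted p = 0.0642, and 0.0104 with only the 6 arrays). ADM, the vasodilator adrenomedullin (-0.73, adjusted p = 0.402), and VEGFA, the endothelial growth factor (-0.51, adjusted p = 0.944), had negative differences that did not pass.

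The arrays at 3 h hold other cultures and give the level of each group at that time, so each step below compares different cultures. For the 8 hypoxia genes that were lower at 6 h, the log2 step between 3 and 6 h was -0.14 to 1.24 in aminaphtone cells, where 1 of the 8, STC2, rose past the threshold. With IL-1β alone the same step was 0.60 to 1.94, and all 8 rose past the threshold. BNIP3 had a step of 0.20 (adjusted p = 0.735) in aminaphtone cells and of 1.39 (adjusted p = 4.58e-05) with IL-1β alone. PFKFB4 stepped by 0.16 (adjusted p = 0.880) in aminaphtone cells and by 1.64 (adjusted p = 6.98e-05) with IL-1β alone. STC2 rose in both, by 1.24 (adjusted p = 0.00486) in aminaphtone cells and by 1.94 (adjusted p = 2.57e-05) with IL-1β alone. These steps use the same 6 h arrays as the comparison at 6 h and so give no independent check of it. Choosing genes that were lower with aminaphtone at 6 h favours a larger step with IL-1β alone. How many of all transcript clusters rose past the threshold between 3 and 6 h was not counted, so the counts stand without a background share. The median step of the whole list was -0.01 in aminaphtone cells and 0.30 with IL-1β alone, against 0.01 and 0.00 for all transcript clusters.

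**Figure D2:**
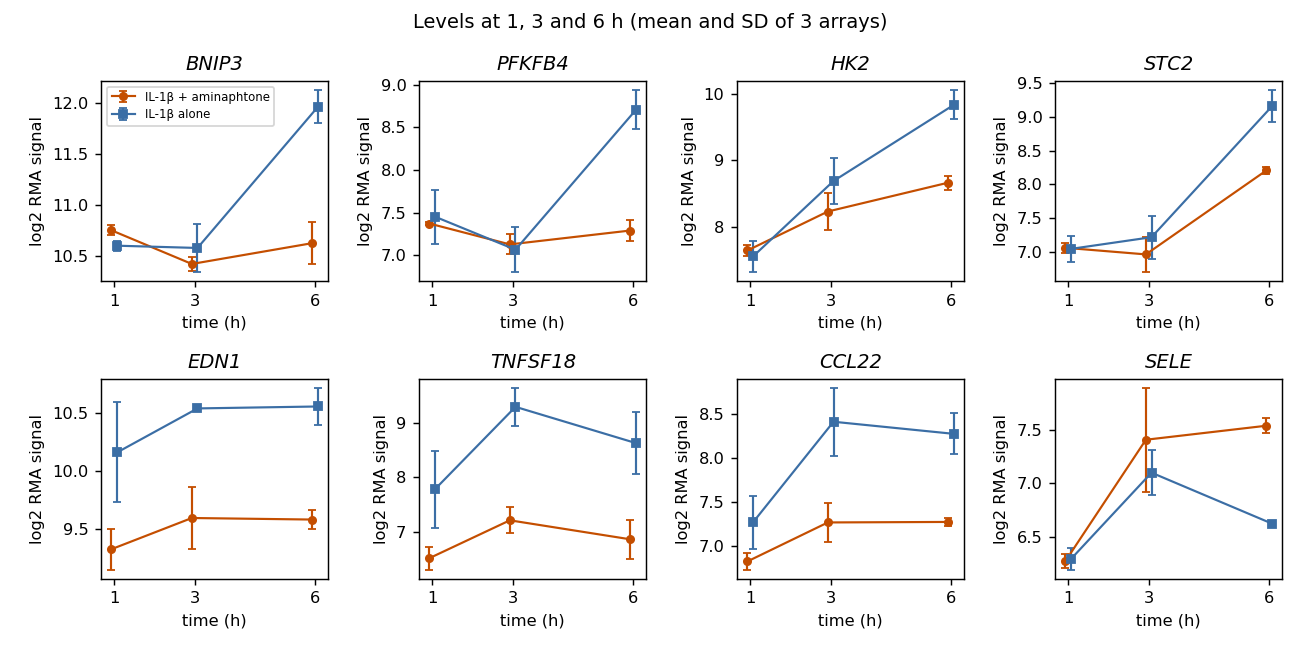
Mean log2 RMA signal (vertical axis, its range set per gene) with SD of 3 arrays at 1, 3 and 6 h (horizontal axis), for IL-1β with aminaphtone (circles) and IL-1β alone (squares). BNIP3 and PFKFB4 are close at 1 and 3 h and apart at 6 h, HK2 has a difference of -1.17 at 6 h and -0.46 at 3 h, and EDN1, TNFSF18 and CCL22 are lower with aminaphtone at all 3 times, and SELE is higher with aminaphtone at 6 h (adjusted p = 0.0503).

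Whether the effect itself differed between times was tested as an interaction. The effect at 6 h minus that at 3 h passed for 2 transcript clusters (0.0112% of all, with 188, or 1.05%, at an unadjusted p of 0.05). These were BNIP3, with an effect of -1.34 at 6 h and -0.16 at 3 h (difference -1.18, adjusted p = 0.0481), and PFKFB4, with -1.42 at 6 h and 0.06 at 3 h (difference -1.48, adjusted p = 0.0481). Neither passed when the 1 h arrays were left out or when arrays were centred on their medians, where no transcript cluster did. For the other 6 hypoxia genes the same difference was -1.12 for ENO2, -0.99 for PDK1, -0.93 for STC1, -0.71 for HK2, -0.70 for STC2 and -0.57 for VLDLR, and it was -1.06 for HILPDA. All 7 had adjusted p = 1, so a change of their effect between 3 and 6 h was not shown, whichever steps passed within a group. Against the 1 h effect, 8 transcript clusters passed (0.0448%), among them BNIP3 (-1.49, adjusted p = 0.00233), DIPK2A (-1.31, adjusted p = 0.00233), PDK1 (-1.77, adjusted p = 0.0341), P4HA1 (-1.58, adjusted p = 0.0341) and PFKFB4 (-1.34, adjusted p = 0.0403). Without replicate 1 of the 1 h control arrays that count was 3238. The lowest count on leaving out 1 array was 3. Leaving out any of several arrays gave it, among them aminaphtone replicates 2 and 3 at 6 h.

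**Figure D3:**
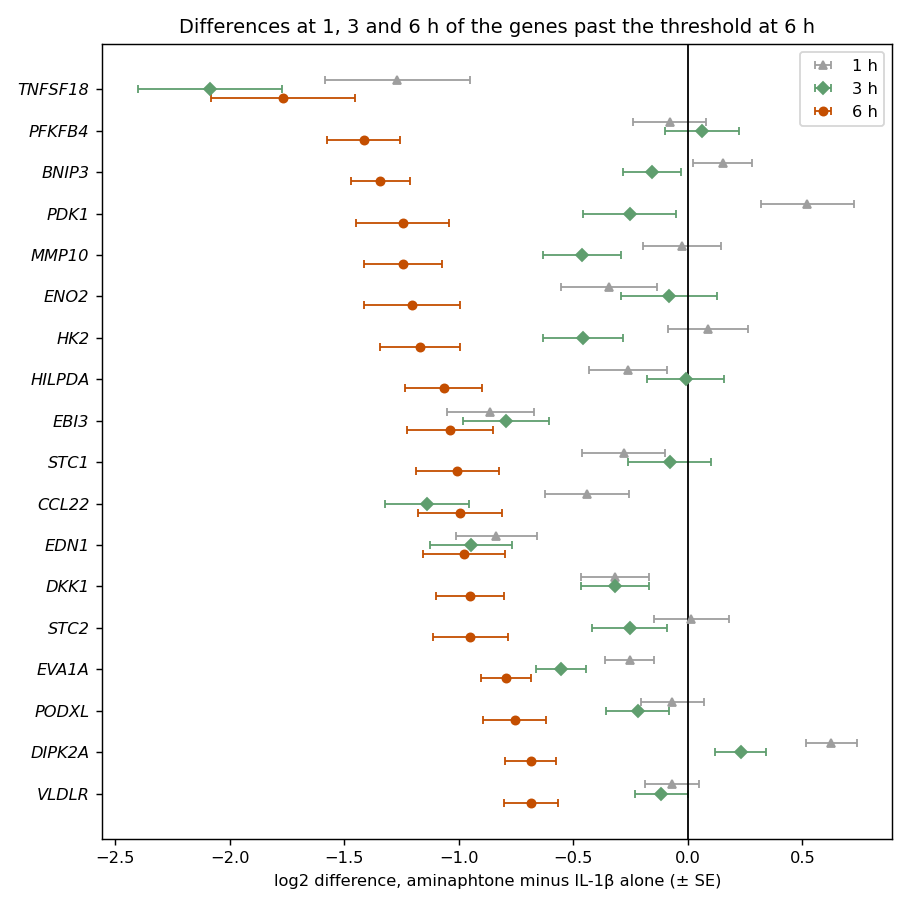
Log2 difference, IL-1β with aminaphtone minus IL-1β alone (horizontal axis, with SE), at 1 h (triangles), 3 h (diamonds) and 6 h (circles) for the 18 genes that passed at 6 h. At 3 h 16 of the 18 values are below 0 and at 1 h 13 are, and those of TNFSF18, EBI3, CCL22 and EDN1 are well below 0 at each time.

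Among the cytokine and vasoactive genes, TNFSF18, EBI3, CCL22 and EDN1 were lower at 6 h and had negative differences at all 3 times, each time in other arrays. EDN1 encodes the precursor of endothelin, a strong vasoconstrictor of endothelial origin. It had 9.65, 9.61 and 9.49 with aminaphtone, against 10.42, 10.74 and 10.52 with IL-1β alone (log2 difference -0.98, SE 0.178, adjusted p = 0.0444). The EDN1 difference was -0.84 at 1 h (adjusted p = 0.0835) and -0.95 at 3 h (adjusted p = 0.0857). Its call at 6 h was lost on leaving out any 1 of the 6 arrays, with an adjusted p of up to 0.259. TNFSF18, the ligand of the costimulatory receptor GITR, had 6.46, 6.98 and 7.14 with aminaphtone, against 8.63, 8.05 and 9.20 with IL-1β alone. This was the widest difference of the 18 and also the one with the largest error (-1.77, SE 0.315, adjusted p = 0.0440), and at 3 h it was -2.09 (adjusted p = 0.0351). CCL22, a chemokine that draws T cells through the receptor CCR4, had 7.22, 7.32 and 7.28 with aminaphtone, against 8.44, 8.01 and 8.37 with IL-1β alone (-0.99, SE 0.183, adjusted p = 0.0458). At 3 h its difference was -1.14 (adjusted p = 0.0351), which makes it and TNFSF18 the 2 of the 18 genes that also passed at 3 h, where 5 transcript clusters (0.028%) did. EBI3, a subunit of heterodimeric cytokines, had 9.32, 9.17 and 8.99 with aminaphtone, against 10.31, 10.30 and 9.99 with IL-1β alone (-1.04, SE 0.189, adjusted p = 0.0444). None of the 4 rose past the threshold between 3 and 6 h, in aminaphtone cells or with IL-1β alone. The share of all transcript clusters that did so was not counted.

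The most familiar IL-1β products did not pass. Of the 27 measured cytokine and chemokine genes, 3 were lower and none higher, against 0.101% and 0% of all transcript clusters, and the median log2 difference was -0.14. Without 1 array at 6 h no member passed, except without control replicate 2, where 3 did, TNFSF18 and CCL22 among them but not EBI3. CXCL8, the neutrophil chemokine, had 12.20, 12.51 and 12.54 with aminaphtone and 12.39, 12.46 and 12.72 with IL-1β alone. IL6 had 12.70, 12.78 and 12.81 with aminaphtone and 12.68, 12.57 and 12.75 with IL-1β alone. In both genes the groups overlapped, with log2 differences of -0.11 and 0.09. CCL2 (-0.15), CCL5 (0.11), and PTGS2, the inducible cyclooxygenase (0.01), overlapped as well, all with adjusted p = 1. CXCL10 lay below the filter, with a mean log2 signal of 3.42. IL32, a cytokine of inflamed tissue, had 7.74, 7.62 and 7.50 with aminaphtone, against 8.23, 8.45 and 8.19 with IL-1β alone, and missed the threshold over the 18 arrays (-0.67, adjusted p = 0.0951, and 0.0366 with the 6 arrays). LIF, a cytokine that signals through the shared receptor gp130, went the other way, with 10.70, 10.66 and 10.84 with aminaphtone, against 10.05, 9.92 and 10.14 with IL-1β alone (0.70, adjusted p = 0.365, and 0.0218 with the 6 arrays). Of 32 measured NF-κB subunits, feedback genes and targets none passed, and the median was 0.07. The difference was negative in 11 (34.4%) and positive in 21, against 54.9% negative over all transcript clusters. The groups did not overlap in 6 members on the higher side and 3 on the lower, against 8.17% and 7.06% of all.

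A group of matrix proteases whose genes lie side by side had lower values with aminaphtone, and 1 of them passed. MMP10, a stromelysin that cleaves matrix proteins and activates procollagenases, had 7.30, 7.55 and 7.77 with aminaphtone, against 8.89, 8.32 and 9.15 with IL-1β alone (log2 difference -1.24, SE 0.170, adjusted p = 0.00582). MMP3, its close relative, had 7.20, 7.30 and 7.62 with aminaphtone, against 9.22, 7.98 and 8.99 with IL-1β alone. MMP1, the interstitial collagenase, had 8.42, 8.31 and 8.48 with aminaphtone, against 9.90, 8.85 and 9.84 with IL-1β alone. In all 3 genes control replicate 2 was the lowest array with IL-1β alone, as in most of the 18 genes that passed, and still lay above the aminaphtone arrays. MMP3 (-1.36, adjusted p = 0.0550, and 0.100 with the 6 arrays) and MMP1 (-1.13, adjusted p = 0.0550, and 0.118 with the 6 arrays) missed the threshold in both fits. Of the 23 measured metalloproteinases and inhibitors, MMP10 was the 1 that passed, against 0.101% of all transcript clusters. The difference was negative in 14 (60.9%), against 54.9% of all, and the median was -0.09.

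The remaining genes that fell belong to several processes. DKK1, a secreted inhibitor of Wnt signalling, had 8.18, 8.18 and 8.14 with aminaphtone, against 9.21, 9.17 and 8.99 with IL-1β alone (-0.95, SE 0.149, adjusted p = 0.0198). It was the 1 member of 36 Wnt and Notch genes to pass, against 0.101% of all transcript clusters, and the median of that list was 0.01. PODXL, a sialomucin of the cell surface found on podocytes and endothelium, had 9.29, 9.23 and 9.29 with aminaphtone, against 10.10, 9.87 and 10.12 with IL-1β alone (-0.76, SE 0.139, adjusted p = 0.0457). EVA1A, a membrane protein tied to autophagy and cell death, had 8.29, 8.15 and 8.19 with aminaphtone, against 8.99, 8.81 and 9.21 with IL-1β alone (-0.80, SE 0.108, adjusted p = 0.00582). DIPK2A, a secretory pathway protein with a divergent kinase domain, had 7.93, 7.91 and 8.0 with aminaphtone, against 8.67, 8.58 and 8.66 with IL-1β alone (-0.69, SE 0.110, adjusted p = 0.0204). DIPK2A was higher with aminaphtone at 1 h (0.63, adjusted p = 0.0325) (where 15 transcript clusters passed, 0.084% of all), so its difference had the opposite sign at that time. Between 3 and 6 h DKK1 did not pass in either group (log2 steps of -0.60 in aminaphtone cells, adjusted p = 0.120, and 0.04 with IL-1β alone, adjusted p = 0.996).

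SELE stood at the edge of the threshold on the other side. It encodes E-selectin, the receptor on activated endothelium that slows leukocytes, and had 7.62, 7.49 and 7.51 with aminaphtone, against 6.65, 6.61 and 6.60 with IL-1β alone. The arrays within each group were close together, and the log2 difference was 0.92 (SE 0.172) with an adjusted p of 0.0503 over the 18 arrays and 0.00439 with the 6 arrays alone. The other 3 genes nearest to it had the same adjusted p of 0.0503, S100A3 (-1.03), IGFL1 (-1.27) and POFUT4 (-0.70), and the last to pass was CCL22 at 0.0458. S100A3, a calcium-binding protein, had 8.12, 7.92 and 7.98 with aminaphtone, against 9.12, 8.85 and 9.14 with IL-1β alone. IGFL1, a small secreted protein of the insulin-like growth factor-like family, had 7.48, 7.31 and 7.45 with aminaphtone, against 8.62, 8.50 and 8.93 with IL-1β alone. The IGFL1 difference was of like size at 1 h (-1.07) and 3 h (-1.03). The other adhesion receptors raised by IL-1β did not pass, with log2 differences of 0.16 for ICAM1 (adjusted p = 1), whose groups did not overlap, and -0.00 for VCAM1 (adjusted p = 1), whose groups did.

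With the 6 arrays at 6 h alone in the fit, 61 transcript clusters passed (0.342%), 41 lower (0.23%) and 20 higher (0.112%), including all 18 that passed over the 18 arrays. That fit rests on 4 residual degrees of freedom in place of 12 and leaves out the spread of the earlier arrays. Among its single-symbol genes 35 were lower and 10 higher. Besides SELE and LIF, the higher ones included RND1, a GTPase that loosens the actin skeleton, with 8.27, 8.0 and 8.29 with aminaphtone, against 7.10, 7.08 and 7.26 with IL-1β alone (1.04, adjusted p = 0.00599 with the 6 arrays and 0.420 with the 18). CNNM4, a magnesium transport protein (0.65, adjusted p = 0.0218 with the 6 arrays), MEGF9 (0.76, 0.0255) and SNX29 (0.69, 0.0121) were higher in the same fit. The lower ones included TAGLN, an actin-binding protein of smooth muscle (-0.69, 0.0213), AK4, a mitochondrial adenylate kinase (-0.72, 0.0306), PPP1R3C, which directs a phosphatase to glycogen (-0.95, 0.0244), KDM3A, a histone demethylase (-0.67, 0.0464), H2AC15, a histone gene (-0.89, 0.0111), EREG, an epidermal growth factor receptor ligand (-0.63, 0.0434), and ACAT2, a thiolase of sterol synthesis (-0.54, 0.0451). None of these passed over the 18 arrays.

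Genes of cell division and small RNA genes had no member past the threshold over the 18 arrays, and in both lists most members lay to one side. Of 34 measured genes of the G2 phase and mitosis, 33 were negative, with a median of -0.25 at 6 h, against -0.02 over all transcript clusters. The groups did not overlap in 7 of the 34 on the lower side, against 7.06% of all. HMMR, a spindle protein that also binds hyaluronan, had 6.21, 7.19 and 6.97 with aminaphtone, against 7.37, 7.69 and 7.63 with IL-1β alone (-0.77, adjusted p = 0.746). DLGAP5, a spindle assembly factor, had 8.62, 9.12 and 9.14 with aminaphtone, against 9.25, 9.71 and 9.43 with IL-1β alone (-0.50, adjusted p = 1). The first aminaphtone array was the lowest in both genes. Without control replicate 2 the median of the list at 6 h was -0.11, and with array weights also -0.11. It was 0.52 at 1 h and -0.19 at 3 h. Of 34 genes of S phase and DNA replication, 27 were negative with a median of -0.09.

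Small nuclear and nucleolar RNA genes lay on the higher side. Of 166 measured members 19 were negative and 147 positive, with a median of 0.22, and in 36 every aminaphtone array was higher, against 8.17% of all transcript clusters. None passed over the 18 arrays, and 3 symbols passed with the 6 arrays. SNORA10 had 11.20, 11.24 and 11.18 with aminaphtone, against 10.61, 10.73 and 10.63 with IL-1β alone (0.55, adjusted p = 0.384, and 0.0306 with the 6 arrays). Its symbol is carried by a pair of transcript clusters with identical values. SNORD45B had 9.67, 9.72 and 9.71 with aminaphtone, against 8.45, 8.43 and 9.06 with IL-1β alone (1.05, adjusted p = 1, and 0.0306 with the 6 arrays). These RNAs guide modifications of ribosomal and spliceosomal RNA. With array weights the median at 6 h was 0.34. It was -0.24 at 1 h and 0.10 at 3 h, so the side of the list was not the same at all times. RNA quality values were not used here, and their part in these small RNA signals was not tested.

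**Figure D4:**
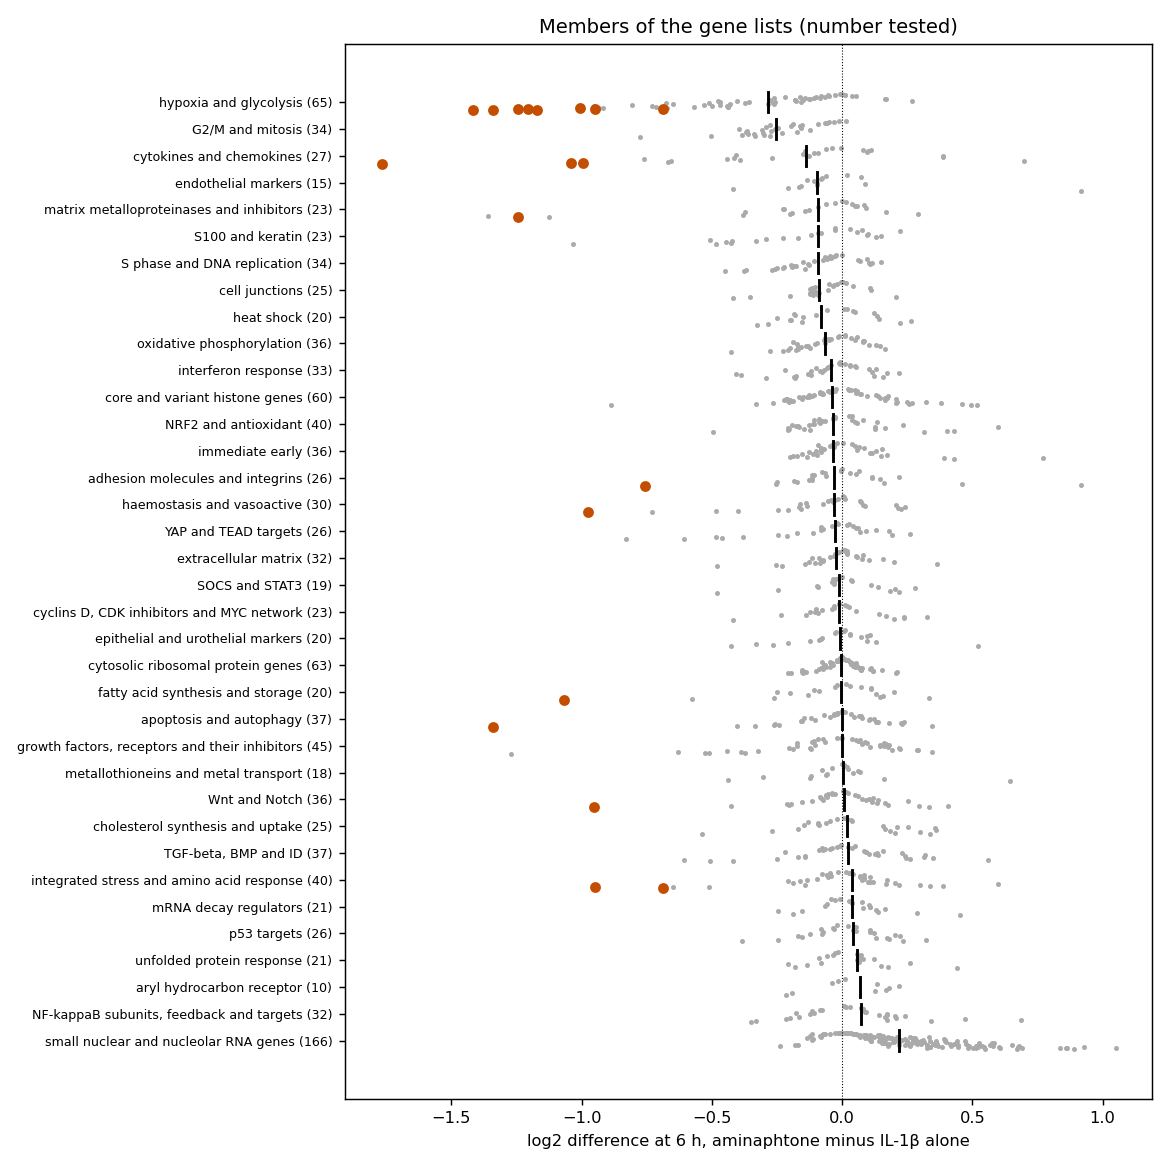
Log2 difference at 6 h, IL-1β with aminaphtone minus IL-1β alone (horizontal axis), of each measured member of the gene lists drawn (number tested in brackets). The lists of zinc finger, solute carrier and olfactory receptor genes are not drawn. Small dots are members that did not pass, large dots members that passed over the 18 arrays, and black bars list medians. The hypoxia and glycolysis list has the lowest median (-0.28) and the small nuclear and nucleolar RNA genes the highest (0.22).

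Most other processes were centred near 0 at 6 h. The medians were 0.02 for 25 cholesterol genes, 0.06 for 21 genes of the unfolded protein response, -0.04 for 40 NRF2 and antioxidant genes, -0.03 for 36 immediate early genes, -0.04 for 33 interferon response genes and -0.00 for 63 cytosolic ribosomal protein genes. No member of these lists passed over the 18 arrays. Of 40 integrated stress and amino acid response genes 2 were lower past the threshold, against 0.101% of all transcript clusters. These were VLDLR and STC2, both also counted in the hypoxia list. HMOX1, the haem oxygenase induced by oxidative stress, had 11.81, 11.59 and 11.47 with aminaphtone, against 12.19, 12.23 and 11.94 with IL-1β alone (-0.49, adjusted p = 0.688). NQO1, a quinone reductase, had a difference of 0.13 (adjusted p = 1). F3, the tissue factor that starts coagulation, had 9.33, 9.35 and 9.48 with aminaphtone, against 9.89, 9.51 and 10.21 with IL-1β alone (-0.49, adjusted p = 1). NOS3, the endothelial nitric oxide synthase, overlapped between the groups (0.09, adjusted p = 1). CDH5, the adhesion protein of endothelial junctions, had 7.22, 7.01 and 7.02 with aminaphtone, against 7.33, 7.67 and 7.52 with IL-1β alone (-0.42, adjusted p = 0.668).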

How the data were processed

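RNA of 18 ECV304 cultures was measured on 1 kind of Affymetrix array (Human Gene 1.0 ST). Per transcript cluster, the authors deposited a log2 signal made with RMA in Affymetrix Expression Console, per the submitters' processing notes; the versions, the arrays normalized together and the annotation's build are not given in the sources used here. Of 28869 transcript clusters, 21062 are annotated, 19310 with a single symbol, 1752 with several and 7807 with none, and 19279 of the single ones matched a RefSeq gene.

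Annotated transcript clusters with a mean above the 25th percentile of all transcript clusters (log2 5.52) were tested. The 18 arrays were modelled together, each of the 6 groups having its own mean, with limma 3.58.1 (R 4.3.3), with 12 residual and 4.86 prior degrees of freedom. Tests were two-sided, with Benjamini-Hochberg adjustment over 17853 transcript clusters and a threshold of 0.05. The calculation was checked on simulated data. Lists took, for each gene, the transcript cluster with the highest mean. Motifs were searched with Python 3.11.15 in RefSeq promoter windows of GRCh38.p14.

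The genes, lists and tests were chosen with earlier results of these data known. Genes were named if they passed at 6 h over the 18 arrays, if they were among the 10 largest falls or rises passing with the 6 arrays at 6 h alone, by their rank of p in a list (up to 5 where a member passed, otherwise up to 2), outside every list by size at an unadjusted p under 0.01, by the 10 smallest p-values of each difference between times, or from a fixed set of 20 genes of inflammation and vascular function. HIF1A, ARNT, EPAS1, VHL, EGLN1, EGLN3 and HIF1AN were added after their values were seen. One gene of the fixed set was not analysed here. Arrays carry no read depth, so precision is limited by how few there are, and p-values reflect the spread among these cultures only, part of which may be technical. Array numbers within a group at 6 h were checked for pairing. Arrays of equal number correlated at 0.421, -0.079 and 0.687 in their deviations from the group means. Those of unequal number ranged from -0.671 to 0.465. The labels do not say whether equal numbers mark a shared culture or day, and the arrays were not treated as pairs.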

Additional observations from a re-analysis of the deposited data

Results flagged for a closer look

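For 8 genes the difference between aminaphtone and IL-1β alone at 6 h departed from that at an earlier time by a test of the departure itself. BNIP3 and PFKFB4 departed from 3 h, by -1.185 (adjusted p = 0.0481) and -1.478 (adjusted p = 0.0481) on the log2 scale, and from 1 h, by -1.494 (adjusted p = 0.00233) and -1.336 (adjusted p = 0.0403). Against 1 h the departure was -1.313 for DIPK2A (adjusted p = 0.00233), -1.579 for P4HA1 (adjusted p = 0.0341) and -1.766 for PDK1 (adjusted p = 0.0341).

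The other 3 genes departed from 1 h because they differed then and lay close together at 6 h. PRDM1, a transcriptional repressor, differed by -0.01 at 6 h and by -1.30 at 1 h (departure 1.293, adjusted p = 0.00504). MIDEAS, a component of a histone deacetylase complex, differed by 0.11 at 6 h and by -0.89 at 1 h (departure 0.9995, adjusted p = 0.0357). MYLIP, the ubiquitin ligase that degrades the LDL receptor, differed by 0.17 at 6 h and by 1.50 at 1 h (departure -1.338, adjusted p = 0.0210).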

How the results depend on the processing

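In 67 results and every alternative run, no gene's difference and no list median changed sign. Counts are among the 67 and have no direction to reverse. The genes were chosen because they passed on these same arrays, so the lack of reversals is no independent check. The 18 calls at 6 h became 61 with only the 6 arrays at 6 h, 33 without the 6 arrays at 1 h (added after seeing the data), 2668 with array weights, which give most weight to 1 array of some groups, and 154 with the first residual component as a covariate, which takes up spread that the groups do not explain. They stayed between 17 and 24 with other filters, another variance model or centring. Leaving out 1 array gave 2 to 39. Whether equal replicate numbers at 6 h mark a shared culture or day is not in the labels. A replicate block within each time gave 28, and a block with the 6 arrays alone 243.

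For the 2 calls of the 6 h against the 3 h effect, the count was 0 with a trended variance, without a filter, centred, with the replicate block and without the 1 h arrays, 16 with array weights, 6 with the residual component and 0 to 3 on leaving out 1 array. For the 8 calls against the 1 h effect, it was 5175 with array weights, 42 with the replicate block, 3477 with the residual component and 3 to 3238 on leaving out 1 array; the cause was not tested. Of the 18 genes, PODXL alone missed in 1 of the 11 alternatives other than leaving out an array (adjusted p = 0.0651). VLDLR was tested in 9 of these 11 and STC1 in 10, as stricter filters removed them from the others. EDN1, EBI3 and STC1 passed in 4 of the 18 fits that leave one out, PODXL in 5, TNFSF18 in 6 and CCL22 in 7.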

Other observations

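Besides EVA1A, which passed, several genes outside the lists had large differences at 6 h and groups that do not overlap, but did not pass. Lower values with aminaphtone were seen for PLCB4, a phospholipase C (-1.10, adjusted p = 0.415), TNFAIP6, a hyaluronan-binding protein of inflammation (-0.88, adjusted p = 0.688), SERPINB9, an inhibitor of granzyme B (-0.78, adjusted p = 0.402), CLEC4E, a pattern receptor (-0.78, adjusted p = 0.402), and IL7R, a cytokine receptor subunit (-0.75, adjusted p = 0.643). For TNFAIP6, SERPINB9 and CLEC4E control replicate 2 was the lowest array with IL-1β alone, as for MMP1 and MMP3. The same held for all of the 18 genes that passed except DKK1, EBI3 and EDN1. Higher values were seen for PRKCA, a protein kinase C (0.62, adjusted p = 0.819), EIF4EBP2, a repressor of cap-dependent translation (0.50, adjusted p = 0.267), and MIR29A, the precursor of a microRNA, which had 5.87, 6.39 and 6.57 with aminaphtone, against 4.57, 4.44 and 5.54 with IL-1β alone (1.43, adjusted p = 0.235).

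KRT7, a keratin of simple epithelia and urothelium, had 10.94, 10.83 and 10.84 with aminaphtone, against 11.38, 11.29 and 11.22 with IL-1β alone (-0.43, adjusted p = 0.793). ELF3, an epithelial transcription factor, had 10.29, 10.09 and 10.13 with aminaphtone, against 9.72, 9.60 and 9.63 with IL-1β alone (0.52, adjusted p = 0.746).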
